A study of Mus musculus with 67 samples.

Results

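pMN and p3 are neighboring progenitor domains of the ventral spinal cord, and their chromatin accessibility was compared at day 4 of differentiation, the first day on which they were sorted apart. Every sample labelled pMN or p3 at day 4 was included, 11 of the 67 samples of the series, with 6 of pMN (3 at 100 nM and 3 at 500 nM SAG) and 5 of p3 (3 at 100 nM and 2 at 500 nM). All were wild-type cells of the HM1 line, mouse embryonic stem (ES) cells, so all replicates come from 1 line. All had been grown in bFGF with LGK, then in bFGF with CHIR99021, SB-431542 and DMH1 to pass through the neuromesodermal progenitor (NMP) state, and from day 3 in 100 nM retinoic acid (RA) with SAG, an agonist of the Shh pathway. In CaTS-ATAC, fixed cells are transposed, stained for intracellular proteins and sorted. The p3 gate took SOX2+ NKX2.2+ OLIG2- cells and the pMN gate OLIG2+ cells without NKX2.2, so a dish gave both types and each sample was a bulk of sorted cells. The values are reads in each accessible element, normalized by the size factors of the authors (normalized counts). In such bulk samples, a lower value can come from fewer cells with an open element or from less signal per cell, and these cannot be told apart. Replicates were separate differentiations of this line, per the study, which counts 3 of them. The replicate numbers 1 to 3 are shared by both types and both concentrations. The 6 and 5 samples are thus not all independent, and each SD and n counts samples. The main fit treated the samples as independent.

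Progenitors of the ventral neural tube read the level of Shh, which is highest at the ventral midline, through GLI factors and through homeodomain and bHLH factors that repress one another. Next to the floor plate, p3 progenitors express NKX2.2 and give rise to V3 interneurons. The pMN domain, dorsal to it, expresses OLIG2 and makes motor neurons, and p2 and p0-1 progenitors, which make interneurons, lie further dorsal and express IRX3 and DBX factors. FOXA2, a forkhead factor able to bind closed chromatin, is best known in the neural tube for its role in the floor plate.

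Between these types 2359 of 29636 tested elements (7.96%) differed by more than 2-fold at an adjusted p under 0.01 (limma), of which 565 were more accessible in p3 and 1794 in pMN, and nearly all of them lay away from promoters. The central 300 bases of 7 of them are printed from the GRCm38 reference genome, plus strand, because they are among the elements described and hold motifs that are counted over all elements at the end. Capitals mark matches, on either strand, to the forkhead (FOX) motif TGTTTAC, the TEAD motif GGAATG, the CDX motif TTTATGG, the SOX motif AACAATG, the NKX2 motif CACTTNA and the E-boxes CAGATG and CAGCTG. A match is a string of letters and not a bound site. Genes are named as the nearest transcription start site (TSS) in the deposited annotation and are not known to be the targets of the element. In the first 4, accessibility was higher in p3.
4933417O13Rik, chr7:143333122-143333421: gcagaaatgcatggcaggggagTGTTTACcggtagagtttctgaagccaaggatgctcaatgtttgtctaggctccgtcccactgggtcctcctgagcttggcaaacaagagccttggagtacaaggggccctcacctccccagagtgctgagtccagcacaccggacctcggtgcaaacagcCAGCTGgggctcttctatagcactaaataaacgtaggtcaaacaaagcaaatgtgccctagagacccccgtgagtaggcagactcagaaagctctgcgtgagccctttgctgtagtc
1110002J07Rik, chr10:66928526-66928825: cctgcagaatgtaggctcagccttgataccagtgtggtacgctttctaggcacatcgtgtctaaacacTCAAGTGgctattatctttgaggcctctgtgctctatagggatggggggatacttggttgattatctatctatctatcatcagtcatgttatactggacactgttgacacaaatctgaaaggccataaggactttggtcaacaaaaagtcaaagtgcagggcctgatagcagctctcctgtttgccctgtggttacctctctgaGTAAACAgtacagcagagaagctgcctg
Gm15486, chr1:157512818-157513117: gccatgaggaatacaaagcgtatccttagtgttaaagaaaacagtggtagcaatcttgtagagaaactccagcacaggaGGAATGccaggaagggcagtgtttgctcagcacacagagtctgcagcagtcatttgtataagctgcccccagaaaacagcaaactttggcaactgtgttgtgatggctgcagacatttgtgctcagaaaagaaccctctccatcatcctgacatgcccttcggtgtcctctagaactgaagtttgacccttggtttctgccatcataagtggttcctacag
Rfx3, chr19:28065263-28065562: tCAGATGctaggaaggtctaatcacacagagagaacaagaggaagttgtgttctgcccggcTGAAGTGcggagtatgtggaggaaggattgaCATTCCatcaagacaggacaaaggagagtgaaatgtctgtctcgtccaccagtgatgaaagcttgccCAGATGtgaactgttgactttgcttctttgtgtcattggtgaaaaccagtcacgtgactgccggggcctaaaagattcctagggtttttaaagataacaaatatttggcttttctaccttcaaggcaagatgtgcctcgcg
In the other 3, accessibility was higher in pMN.
Triml1, chr8:42599720-42600019: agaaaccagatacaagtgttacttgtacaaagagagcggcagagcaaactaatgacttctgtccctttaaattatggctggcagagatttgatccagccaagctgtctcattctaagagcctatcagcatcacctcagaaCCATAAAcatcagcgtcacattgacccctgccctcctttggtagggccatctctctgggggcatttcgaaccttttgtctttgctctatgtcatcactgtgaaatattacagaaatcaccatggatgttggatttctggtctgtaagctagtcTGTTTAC
Dnajc24, chr2:106213833-106214132: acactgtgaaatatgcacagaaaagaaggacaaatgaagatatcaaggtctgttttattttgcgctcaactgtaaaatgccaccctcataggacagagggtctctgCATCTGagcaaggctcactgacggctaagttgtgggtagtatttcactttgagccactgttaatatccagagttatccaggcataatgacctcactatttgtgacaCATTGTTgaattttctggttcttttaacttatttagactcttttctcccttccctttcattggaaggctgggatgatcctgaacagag
Tex47, chr5:7073998-7074297: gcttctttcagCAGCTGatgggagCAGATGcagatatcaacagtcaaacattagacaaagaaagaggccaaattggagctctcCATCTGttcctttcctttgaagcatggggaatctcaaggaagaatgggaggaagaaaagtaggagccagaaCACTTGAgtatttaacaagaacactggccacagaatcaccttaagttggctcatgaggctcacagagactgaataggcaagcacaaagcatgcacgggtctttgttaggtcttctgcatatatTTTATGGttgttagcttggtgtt
The FOX motif is in the elements nearest 4933417O13Rik and 1110002J07Rik, but also in that nearest Triml1, and the TEAD motif is in those nearest Gm15486 and Rfx3. The CDX motif is in the elements nearest Triml1 and Tex47. These 7 were picked for holding motifs. Among the other elements with the largest increase in p3, those near Tango6 and Frmd4b hold none of the motifs counted. That near Gm4668 holds only CAGCTG. Among those with the largest decrease, the element near Frrs1 also holds the FOX motif.

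The samples separated by cell type. Depth was between 14866189 and 21129917 reads in elements for pMN and between 9298160 and 23973955 for p3, with p3 at 100 nM replicates 1 (9298160) and 2 (9577692) the shallowest. In a principal component analysis of the 30000 most variable elements, the first component held 60.8% of the variance, with pMN samples from -93.8 to -61.0 and p3 samples from 83.1 to 95.5. The second held 16.2%, and on it the types overlapped and the sample farthest from the others was p3 at 100 nM replicate 1, at -104. The squared Pearson correlation across elements was 0.944 to 0.976 between pMN samples and 0.901 to 0.972 between p3 samples. Between pMN and p3 it was 0.830 to 0.905, and 0.852 to 0.905 in the 5 pairs with the same replicate number and SAG concentration. Elements are not independent replicates, and these coefficients describe the samples only.

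**Figure D1:**
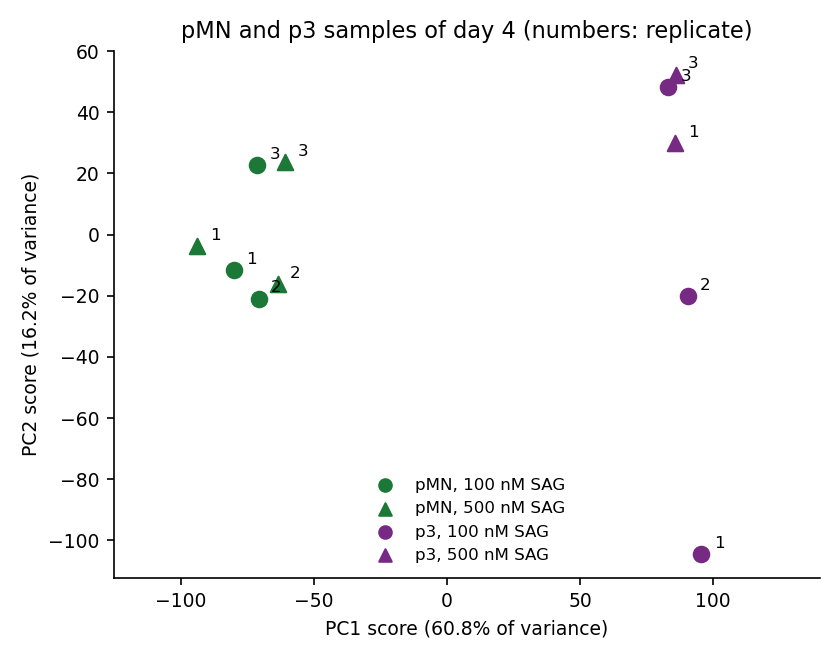
Principal components 1 and 2 (percent of variance on each axis) of the 30000 most variable elements in the 11 samples, 1 point a sample, by cell type and SAG concentration. The pMN samples lie from -93.8 to -61.0 and the p3 samples from 83.1 to 95.5 on component 1.

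Elements with a mean above 100 normalized counts were tested with limma, and those with an adjusted p under 0.01 whose group means differed by more than 2-fold were called. Signs are p3 minus pMN throughout, and an element that rose or fell did so from pMN to p3. The 2359 called elements (7.96% of those tested) were 565 higher in p3 (1.91%) and 1794 higher in pMN (6.05%), and 11082 had an unadjusted p under 0.05. The median log2 fold change was 1.29 for the elements higher in p3 and -1.42 for those higher in pMN, and the most extreme values were 3.72 and -3.99. Over all tested elements the median was 0.08, and it moved to -0.03 with size factors taken from promoter elements and to 0.14 with samples centered on their medians. At a log2 fold change above 2, 370 elements (1.25%) remained, 53 higher in p3 (0.179%) and 317 in pMN (1.07%). Without p3 at 100 nM replicates 1 and 2, which was chosen on seeing the data, this became 95 and 262, so that p3 took 26.6% of the calls in place of 14.3%. Leaving out single libraries moved the 53 the other way too, to 30 (7.32% of the calls) without p3 at 500 nM replicate 3 and to 35 (8.29%) without p3 at 100 nM replicate 3. Every pMN sample lay above or below every p3 sample in 5309 tested elements (17.9%, being 6.09% with p3 above and 11.8% with pMN above), in 462 of the 565 elements called higher in p3 (81.8%) and in 1737 of the 1794 called higher in pMN (96.8%). Per sample, the median of the 565 elements was 178, 193 and 259 normalized counts in p3 at 100 nM replicates 1, 2 and 3 and 263 and 280 at 500 nM, against 78.0 to 109 in pMN. The 2 shallowest libraries thus had the lowest medians among p3 samples, still above every pMN sample. The same samples chose the 565 and 1794 elements. Medians apart between the types, and the shares of called elements without overlap, thus follow in part from the choice. The median of the 1794 elements was 238 to 296 in pMN and 72.7 to 104 in p3.

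**Figure D2:**
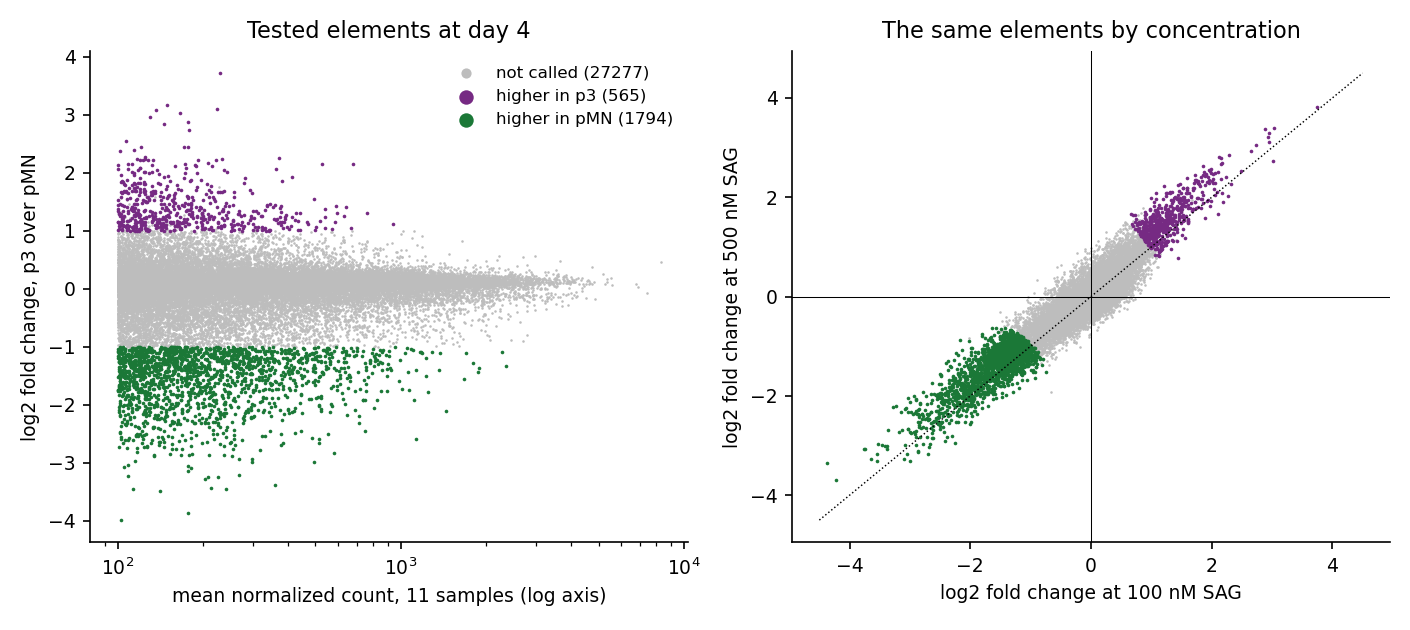
Log2 fold change (p3 over pMN, normalized counts with a pseudocount of 1) against mean normalized count (log axis) of the 29636 tested elements, with called elements in color. The 565 elements higher in p3 reach 3.72 and the 1794 higher in pMN reach -3.99.

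The difference was in distal chromatin. Promoter-TSS elements made up 23.5% of tested elements (6954), but 1.77% of those higher in p3 (10) and 1.11% of those higher in pMN (20). Put the other way, 0.431% of tested promoters were called against 10.3% of the other 22682 elements. Introns held 266 of the elements higher in p3 (47.1%) and 881 of those higher in pMN (49.1%), against 34.1% of all tested. Intergenic elements numbered 273 (48.3%) and 849 (47.3%), against 28.2%. Called elements lay far from start sites, with a median distance to the nearest TSS of 41673 bp for p3 and 54826.5 bp for pMN, against 6370.5 bp for all tested. Distances above 100000 bp were found in 27.6% and 31.9% of them and in 11.9% of all. The elements higher in p3 had a median width of 1091 bp, a GC content of 47.3% and a mean of 153 normalized counts, and those higher in pMN 1138 bp, 46.3% and 183. All tested elements were wider (1384 bp), richer in GC (54.7%) and stronger (309). The called elements were spread over many genes. Those higher in p3 were nearest 530 genes, 2 of which had 3 or more, and those higher in pMN nearest 1473 genes, 59 of which had 3 or more.

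At the loci of the sorting proteins, no element at a start site passed the 2-fold threshold. The Sox2 promoter, of the pan-neural factor present in both gates, had 1839.5 ± 83.4 normalized counts in pMN (SD, n = 6) and 1784 ± 199.5 in p3 (SD, n = 5), with limma's adjusted p = 0.637. The sign of its log2 difference of -0.04 depended on the scaling. No element carries Nkx2-2 as its nearest gene. Its locus is annotated to Nkx2-2os, an antisense transcript, and to 6430503K07Rik, and those elements were chosen after their values were seen. The promoter element of 6430503K07Rik at chr2:147183999-147190942 ranged from 1427 to 2256 (median 1819.6) in pMN, against 2846, 2259.9 and 2927 at 100 nM and 2757 and 2740.0 at 500 nM in p3. It was higher in p3 without overlap, by 0.57 on the log2 scale (SE 0.12, adjusted p = 0.00122), below the 2-fold threshold. Elements of an intron of Nkx2-2 at chr2:147177801-147179088 and chr2:147180414-147182945 had log2 differences of 0.14 (adjusted p = 0.378) and 0.15 (adjusted p = 0.345). At Olig2, which marks pMN, the element nearest the TSS, in its intron, had 1358 ± 104 in pMN and 831 ± 87.7 in p3, a log2 difference of -0.71 (SE 0.08, adjusted p = 1.17e-05) without overlap but also under 2-fold. The Nkx6-1 promoter, of a factor made in both types, differed by -0.10 (adjusted p = 0.234), and the Pax6 promoter, of a factor of more dorsal progenitors, by -0.40 (adjusted p = 0.000622, no overlap).

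At Foxa2 the promoter was not called, while a distal element was higher in pMN. The promoter held 872 ± 263 normalized counts in pMN and 1298 ± 203 in p3, a log2 difference of 0.57 (SE 0.18) that was not called (adjusted p = 0.0204, limma), and the samples overlapped. It had 1494 ± 212 in NMPs (SD, n = 3). By day 5 it held 406 ± 100.3 in pMN and 1336 ± 215 in p3, and the difference had changed from day 4 by 1.10 on the log2 scale (adjusted p = 0.00638). The element at chr2:147980705-147981500, 65867 bp from the TSS, ranged from 149 to 324 (median 238) in pMN against 28.3, 30.3 and 60.5 at 100 nM and 43.5 and 70.5 at 500 nM in p3. It was lower in every p3 sample than in any pMN sample, with a log2 fold change of -2.29 (SE 0.22, adjusted p = 5.35e-06).

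The elements with the largest increase in p3 had few reads in pMN. In an intron of Kcnq1, a potassium channel gene, the element at chr7:143332764-143333781, whose nearest TSS is that of 4933417O13Rik, ranged from 19.5 to 76.7 (median 24.7) normalized counts in pMN. In p3 it held 327, 219.9 and 561 at 100 nM and 514 and 702 at 500 nM. The lowest p3 sample was thus well above the highest pMN sample, 500 nM replicate 3, and the fold change was 13.2 (log2 3.72, SE 0.30, adjusted p = 9.12e-07, limma). An intergenic element near Gm4668 at chr9:116388783-116389531 ranged from 12.6 to 73.3 (median 19.0) in pMN against 149, 127 and 381 at 100 nM and 330.0 and 474 at 500 nM in p3, a log2 fold change of 3.17. Near Tango6, a gene of Golgi organization, the element at chr8:106671950-106673223 rose from 49.7 ± 14.9 (SD, n = 6) to 432 ± 198 (SD, n = 5), by 3.10. Near Frmd4b, which encodes a scaffold protein with a FERM domain, the element at chr6:97754419-97755130 rose from 30.3 ± 17.5 to 264 ± 113, by 3.08. The element in an intron of Sec16b, nearest Gm15486, rose by 3.03 and that near 1110002J07Rik by 2.96 (adjusted p = 9.91e-07 and 1.37e-05). In NMPs of day 3 the element in Kcnq1 held 3.46 ± 2.02, that near Frmd4b 2.38 ± 1.16 and that nearest Gm15486 4.31 ± 1.42, so these had few reads at day 3. The elements near Tango6 and 1110002J07Rik already held 57.9 ± 4.10 and 88.1 ± 20.0 in NMPs.

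The elements with the largest decrease had few reads in p3. Near Triml1 the intergenic element at chr8:42599493-42600247 ranged from 128 to 299.5 (median 152) in pMN, against 4.04, 9.48 and 10.5 at 100 nM and 14.2 and 13.5 at 500 nM in p3. Its fold change was 15.9 (log2 -3.99, SE 0.21, adjusted p = 7.27e-08, limma), the largest among called elements in either direction. Near Dnajc24, which encodes a J-domain protein, the element at chr2:106213646-106214320 held 219 to 462 (median 304) in pMN against 8.07, 13.3 and 17.1 at 100 nM and 28.3 and 34.5 at 500 nM in p3, a log2 fold change of -3.86. In an intron of Zfp804b, a zinc finger gene, that at chr5:7073777-7074520 (nearest TSS Tex47) held 312 to 585 (median 389) against 22.2, 19.0 and 60.5 at 100 nM and 43.5 and 39.0 at 500 nM, a change of -3.45. In p2 of day 4 these 3 held 132 ± 64.4, 234 ± 124 and 402 ± 134 normalized counts (SD, n = 6), and they were at or below 7.10 ± 2.44 in NMPs. Elements near Frrs1 (-3.49) and Gm10823 (-3.45) and in an intron of Nek9 (-3.44), a kinase gene of the mitotic spindle, fell without overlap too. That in Nek9 already held 37.0 ± 25.7 in NMPs.

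**Figure D3:**
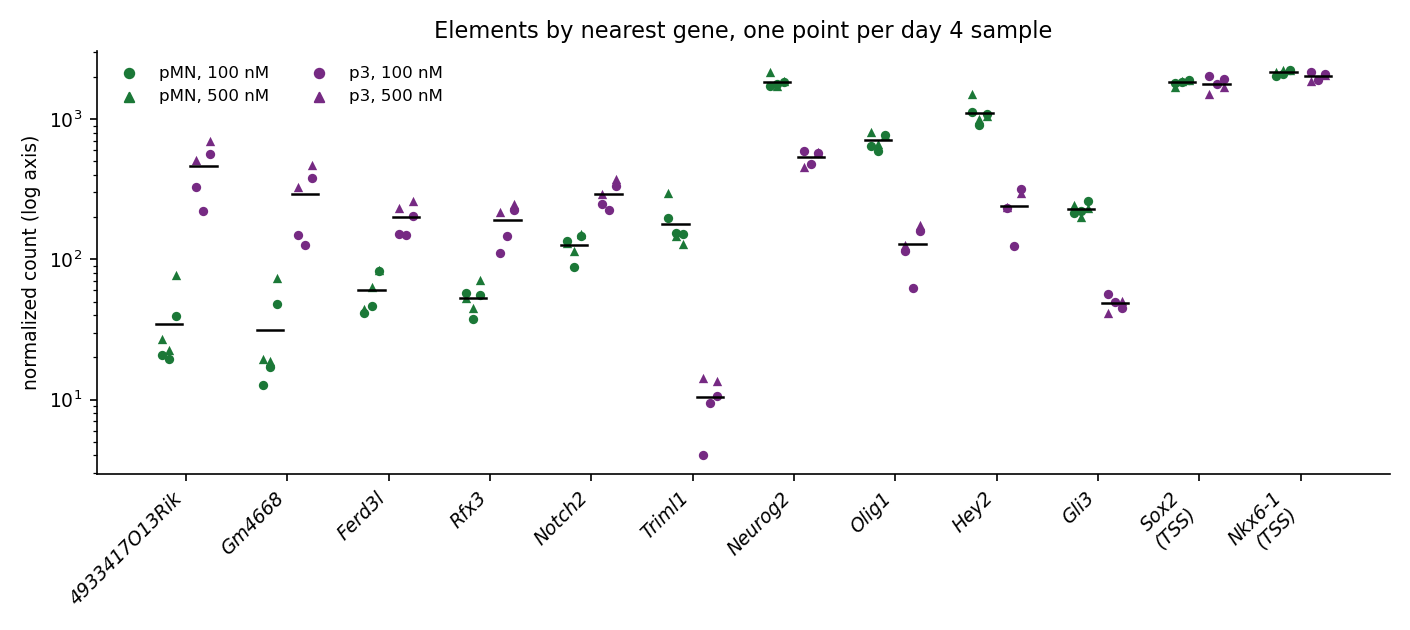
Normalized counts (log axis) of named elements in each of the 11 samples, 1 point a sample, by cell type and SAG concentration. In the element nearest 4933417O13Rik the p3 samples lie at 219.9 or above and the pMN samples at 76.7 or below, and in that nearest Triml1 the order is the opposite.

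Of 54 tested elements nearest to 10 genes of p3 progenitors and V3 neurons, 4 were higher in p3 and 6 in pMN (18.5% called, against 7.96% of all tested), with a median log2 fold change of 0.10 against 0.08. The split depended on the scaling, and was 1 and 7 with size factors from promoters. The list was chosen with earlier results of these data known, as were the other lists. Those higher in p3 included 1 each nearest Nkx2-9, Lmx1b and Rfx3, and those higher in pMN were 2 each at Neurog3 and Sp8 and 1 each at Sim1 and Uncx, named after their values were seen where the rule for named genes did not reach them. Near Rfx3, a factor of ciliated cells, the element at chr19:28065099-28065727 ranged from 37.8 to 71.6 (median 53.9) in pMN and held 111, 146 and 223 at 100 nM and 217 and 249.6 at 500 nM in p3. It was higher in p3 by 1.81 on the log2 scale (SE 0.20, adjusted p = 1.81e-05, limma). Other loci of p3 and V3 factors had elements that were lower in p3. Sim1 marks V3 neurons, and its element at chr10:51153018-51154407 held 398 to 642 (median 487) in pMN against 90.8, 131 and 169.6 at 100 nM and 106 and 175 at 500 nM in p3, a log2 fold change of -1.88 (SE 0.16, adjusted p = 9.11e-07). Near Sp8, a zinc finger factor, that at chr12:118829616-118830339 fell from 169 ± 40.3 to 32.5 ± 15.8, by 2.34 on the log2 scale. Near Uncx, a homeobox gene, that at chr5:139584605-139586025 fell from 234 ± 27.1 to 65.8 ± 18.2, by 1.81.

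At 11 floor plate genes 43 elements were tested, of which 2 were higher in p3 and 4 in pMN (14.0% called, against 7.96% of all tested), with a median of 0.13 against 0.08. The promoter of Ferd3l, a bHLH factor gene of the ventral midline, ranged from 41.3 to 83.5 (median 55.1) normalized counts in pMN and held 151, 149.8 and 205 at 100 nM and 234 and 260.1 at 500 nM in p3. It was one of the 10 promoters called higher in p3, with a log2 fold change of 1.72 (SE 0.20, adjusted p = 2.18e-05, limma), and at day 5 it held 484 ± 115 in p3 against 31.8 ± 12.7 in pMN. Near Shh, the ligand of the pathway, an element at chr5:28567399-28569144 rose from 136 ± 37.0 to 281 ± 72.6, by 1.04 (adjusted p = 0.00107). It passed the 2-fold threshold narrowly, and without some single samples it fell under it, the lowest value being 0.92 without p3 at 500 nM replicate 3. In an intron of Spon1, which encodes the floor plate protein F-spondin, the element at chr7:113813853-113814751 was lower in p3 by 1.62 on the log2 scale (427 ± 96.3 against 138 ± 39.0, adjusted p = 1.98e-05), as was that 65867 bp from Foxa2 described before. The 4 elements higher in pMN were 3 at Spon1 and this one.

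At 11 genes of the pMN domain and of motor neurons, 43 elements were tested, and 7 were higher in pMN and 0 in p3 (16.3% called, against 7.96% of all tested and 6.05% for pMN), with a median of -0.11 against 0.08. They were 3 at Olig2, 2 at Olig1 and 2 at Neurog2. Near Olig1, the paralog beside Olig2, the element at chr16:91297498-91298284 held 591 to 810.4 (median 717) in pMN against 115, 62.6 and 160.4 at 100 nM and 126 and 176 at 500 nM in p3, a change of -2.46. In p0-1 it held 95.6 ± 43.0 and in NMPs 22.2 ± 3.17. Neurog2 encodes the proneural factor of motor neuron progenitors, and the element 5902 bp from its TSS held 1718 to 2184 (median 1805) in pMN against 589, 478 and 576 at 100 nM and 452 and 580.2 at 500 nM in p3, a change of -1.79 (adjusted p = 8.16e-09). It stood at 1185 ± 68.7 in NMPs, between the levels of p3 and pMN.

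At 16 genes of p0 to p2 and their interneurons, 64 elements were tested, 7 of which were higher in pMN and 1 in p3 (12.5% called, against 7.96% of all tested, of which 6.05% in pMN and 1.91% in p3), with a median of 0.12 against 0.08. The calls among all tested elements thus lean to pMN in the same direction, though the median log2 fold change does not. Irx3 had 3 of the elements higher in pMN. Irx3 and the Dbx genes encode homeodomain factors of these more dorsal domains. Elements called higher in pMN were 3 of 15 tested at Irx3, 1 of 6 at Dbx1 and 1 of 3 at Dbx2. The element near Irx3 at chr8:91866893-91867609 fell from 359.8 ± 61.5 in pMN to 62.3 ± 27.8 in p3, by 2.51 on the log2 scale (SE 0.24, adjusted p = 1.98e-06, limma). In p2 and p0-1 of day 4 it held 227 ± 54.9 and 121 ± 34.2. In an intron of Dbx2 that at chr15:95639106-95640768 held 215 to 413 (median 273) in pMN against 54.5, 45.5 and 68.4 at 100 nM and 40.5 and 83.2 at 500 nM in p3, a change of -2.32. Near Dbx1 that at chr7:49696204-49697027 held 189 to 253 (median 216) against 50.5, 49.3 and 60.5 at 100 nM and 32.4 and 39.7 at 500 nM, a change of -2.23, and was highest in p0-1, at 861 ± 361. Near Irx1 the element at chr13:71933978-71934914 was higher in p3 (66.5 ± 10.9 against 201 ± 26.4, log2 1.58) but had 1.93 ± 1.83 in NMPs. In an intron of Elp4 beside Pax6, the element at chr2:105779247-105779869 had a log2 fold change of -1.20 without overlap but was not called (adjusted p = 0.0144), with p3 samples at 6.06, 73.9 and 76.3 at 100 nM and 82.0 and 81.0 at 500 nM.

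Hedgehog pathway loci held 50 tested elements, 7 higher in pMN and 1 in p3 (16.0% called, against 7.96% of all tested, of which 6.05% in pMN and 1.91% in p3), with a median of -0.12 against 0.08. SAG activates this pathway in the cultures of both types. Among receptors, Boc and Gas1 encode coreceptors for Shh. The element near Boc at chr16:44579345-44580325 ranged from 229 to 374 (median 268) in pMN against 48.4, 30.3 and 42.1 at 100 nM and 32.4 and 72.0 at 500 nM in p3, a log2 fold change of -2.60 (SE 0.18, adjusted p = 1.86e-07, limma). That near Gas1 at chr13:60122989-60126058 held 488 to 640.1 (median 573) against 101, 102 and 188 at 100 nM and 123 and 161 at 500 nM, a change of -2.09. Both were lower in every p3 sample than in any pMN sample. Gli3 encodes the main repressor of the pathway, and an element 355573 bp from it held 202 to 262 (median 226) against 56.5, 49.3 and 44.7 at 100 nM and 41.5 and 50.2 at 500 nM, a change of -2.22. Hhip encodes an inhibitor that binds Shh, and an element in its intron fell by 1.41 on the log2 scale (574 ± 66.0 against 215 ± 41.6). The call higher in p3 was at Disp1, a gene needed to release Shh from cells, with a log2 fold change of 1.04, and Ptch1, the receptor, had 1 element higher in pMN, at -1.198, both named after their values were seen.

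At pan-neural genes 58 elements were tested, and 9 were higher in pMN and 0 in p3 (15.5% called, against 7.96% of all tested and 6.05% for pMN), with a median of -0.12 against 0.08. Nkx6-1, made in both types, had an element 232438 bp from its TSS with 134 to 267 (median 211) in pMN against 58.5, 34.1 and 40.8 at 100 nM and 68.8 and 53.2 at 500 nM in p3 (log2 -2.001, SE 0.19, adjusted p = 3.62e-06, limma). The largest difference at Sox2, at chr3:34678647-34680549, was not called (284 ± 79.0 against 401 ± 119.5, adjusted p = 0.111). The element at the end of Sox1, a SoxB1 gene, fell from 215 ± 38.1 to 101 ± 9.81, by 1.08 on the log2 scale. Of 55 elements at Notch pathway loci, which share some genes with the pan-neural list, 6 were higher in pMN and 1 in p3 (12.7% called, against 7.96% of all tested, of which 6.05% in pMN and 1.91% in p3). Notch2 had 1 in each direction. The element near Hey2, a target gene of the pathway, fell by 2.20 on the log2 scale (1110.3 ± 207 against 241 ± 74.5), that near another target, Hes5, by 1.73 (197 ± 46.0 against 58.9 ± 17.8) and that near the ligand gene Dll1 by 1.25 (1061 ± 95.1 against 446 ± 71.0). The receptor genes were split, as an intron element of Notch1 fell by 1.08 (921 ± 52.4 against 435 ± 24.0) and one of Notch2 rose by 1.201 (127 ± 23.3 against 294 ± 61.7).

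RA was in the medium of both types. Of 70 tested elements at RA pathway loci, 4 were higher in pMN, 3 of them at Meis1, and 1 in p3 (7.14% called, against 7.96% of all). In introns of Meis1, a cofactor of Hox proteins, and Aldh1a2, the enzyme that makes RA, elements fell by 2.05 and 1.60 on the log2 scale (195 ± 27.7 against 46.2 ± 11.4, and 192 ± 31.5 against 62.6 ± 24.5). An element in an intron of Rarb, an RA receptor, had 34.1 to 152 (median 72.5) in pMN and 105, 146 and 297 at 100 nM and 235 and 341 at 500 nM in p3 (log2 1.46, SE 0.33, adjusted p = 0.00583, limma). The Rarb samples overlapped, and the call was lost without any 1 of several samples. Of 51 elements at Hox genes, which set position along the head to tail axis, 2 were higher in pMN and 0 in p3 (3.92% called, against 7.96% of all tested), which became 6 with size factors from promoters and 4 without the 2 shallowest libraries. The 2 were the Hoxd4 promoter element, which fell from 194 ± 28.5 to 43.0 ± 19.1, and an intron element of Hoxb4, which fell from 1423 ± 85.1 to 690.2 ± 70.6 and was under 2-fold with samples centered on their medians. At 11 genes of NMPs and posterior tissue none of 19 tested elements was called by limma, 2 had an unadjusted p under 0.05, and their log2 fold changes lay between -0.39 and 0.49.

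Marker loci of other tissues were read as a check of the sort. Of 43 elements at endoderm marker loci 4 were higher in pMN and 0 in p3 (9.30% called, against 7.96% of all tested, of which 6.05% in pMN and 1.91% in p3), among them 2 at Cxcr4 (the larger at -1.84) and 1 at Gata6 (-1.01), the last under 2-fold without some single samples. At mesoderm loci 1 of 29 (3.45%, near Prrx1, -1.24) and at neural crest loci 2 of 16 were higher in pMN (12.5%, both near Foxd3, the larger at -1.10), and at fibroblast loci 0 of 10 were called with limma, 4 having an unadjusted p under 0.05. At pluripotency loci 1 of 18 was higher in p3 (5.56%), near Nanog (1.02, under 2-fold in 6 alternatives), where NMPs held 375 ± 31.8 against 87.1 ± 13.8 in pMN and 177 ± 19.4 in p3. At neuron marker loci 2 of 20 were higher in pMN and 1 in p3 (15.0% called, against 7.96% of all tested). The element near Neurod1, a gene of differentiating neurons, fell by 1.38 on the log2 scale (333 ± 40.4 against 127 ± 23.2), that near Elavl4 fell by 1.10 with overlapping samples, and that in an exon of Nefm, a neurofilament gene, rose by 1.30 (159 ± 69.8 against 393 ± 99.8). Summed over promoter elements of a list, the 16 lists had 0 elements at 0 in all samples, and the sums of the 2 types overlapped for 15 of the lists. The exception was the neuron markers, with 1601 to 1786 normalized counts over 4 promoter elements in pMN and 1399 to 1491 in p3. Among all single tested elements, 17.9% did not overlap between the types, 11.8% with pMN above. Most of these tested elements are not promoters, and a sum over promoters is another measure, so this share is no matched baseline. Whether 1 list of 16 without overlap is more than chance gives was not tested. The part of these marker loci in the results was not tested.

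Counted by gene, Fyn, a kinase of the Src family, had the most elements higher in p3, 3 of 4 tested, with log2 fold changes from 1.03 to 1.27, and Tmem170b had 3 of 7. At Ect2, a regulator of cytokinesis, at Strit1 and at Gm26685 both tested elements were higher in p3. In pMN, Tenm3, a teneurin of cell contacts, had 6 of 19 elements higher, from -2.28 to -1.05, and Acvr2a, an activin receptor, 5 of 11, from -2.65 to -1.26. Psat1, an enzyme of serine synthesis, and 4930405L22Rik had 4 of 6 each. At 9430078K24Rik 5 of 21 were higher in pMN and 2 in p3. Of all tested elements, 1.91% were called higher in p3 and 6.05% in pMN, and these genes were picked for having the most calls. Genes with more elements have more chances, so these counts are a description.

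The separation was seen at both SAG concentrations, for which the cells came from separate dishes but shared replicate numbers. At 100 nM 1731 of 29333 elements were called (5.9%), 261 higher in p3 (0.89%) and 1470 in pMN (5.01%), and at 500 nM 2011 of 30065 (6.69%), 663 (2.21%) and 1348 (4.48%). Samples of one concentration were then used to choose elements and those of the other to read them. Of the 245 elements called higher in p3 at 100 nM and tested at 500 nM, all 245 had the same sign at 500 nM, and 206 were called there (84.1%, against 6.07% of all 28663 tested at both). Of 1462 called higher in pMN at 100 nM, 1462 had the same sign and 1049 were called (71.8%). In the reverse direction, 543 elements higher in p3 at 500 nM and 1196 higher in pMN all kept their sign at 100 nM, where 206 (37.9%) and 1049 (87.7%) were called. Among all 28663, 74.4% had the same sign at both. The 565 elements had a median log2 fold change of 1.17 at 100 nM and 1.49 at 500 nM. The 2 shallowest p3 libraries are both at 100 nM, and without them, over both concentrations, 779 elements were called higher in p3 and 1723 in pMN. For the 1794 elements the medians were -1.51 and -1.34. A term for the dependence of the difference on SAG concentration was called in 0 of 29636 elements (0%) with limma at an adjusted p under 0.01, with 202 at an unadjusted p under 0.05 and 0.93 as the lowest adjusted p. On recovered reads limma's voom also called 0, with 215 at an unadjusted p under 0.05. Both counts are below the share of 0.05 that a calibrated test gives without any dependence, so this term was not calibrated here. The 0 calls thus do not show that the difference is free of SAG. A dependence on SAG smaller than the spread between samples was not detectable. Each concentration alone rested on few samples, and without pMN at 100 nM replicate 1 the call count there was 321, and without pMN at 500 nM replicate 2 it was 0, with 6306 at an unadjusted p under 0.05.

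The elements were read in later pMN and p3, 10 samples of day 5 and 8 of day 6, which were not used to choose them. Those samples are of the same line and carry replicate numbers shared with day 4. They are thus not independent replicates of the day 4 samples. At day 5, with 6085 of 31887 elements called between the types (19.1%, with 7% higher in p3 and 12.1% in pMN), 451 of the 565 elements higher in p3 passed the filter, 449 of these had the same sign (against 84.5% of all tested on both days) and 392 (86.9%) were called in the same direction, against 12.3% of all elements tested on both days. Their median log2 fold change was 1.86. Of 1450 elements higher in pMN that passed, 1425 had the same sign, 1148 (79.2%) were called the same way and 2 the opposite way, with a median of -1.66. At day 6, with 8704 of 33667 called (25.9%, with 10.4% higher in p3 and 15.5% in pMN), 346 of 425 (81.4%) and 1012 of 1317 (76.8%) were called in the same direction, against 14.8%, and the medians were 2.29 and -1.77. On both later days, 325 (57.5%) of the 565 and 943 (52.6%) of the 1794 were called, against 8.91% of all tested at day 4, and on neither 152 (26.9%) and 577 (32.2%), against 85.4%, some of which no longer passed the filter. The element near Triml1 had a log2 fold change of -4.22 at day 5 and -4.28 at day 6, when it was under the filter and not tested. That in Kcnq1 had 4.402 and 5.07 and was tested on both days.

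The change of the difference from day 4 to day 5 was tested as a term of the model, and passed in 1998 of 30875 elements (6.47%, with 2.67% changing towards p3 and 3.8% towards pMN), or 3985 with the replicate number as a block. Among the 565 elements higher in p3 it passed in 69, of which 59 had a larger difference at day 5 and 10 a smaller one. Among the 1794 it passed in 248, with 160 larger and 88 smaller. Among all elements tested at day 4 it passed in 1445, with 978 larger and 467 smaller. The day 4 values that chose the 565 and 1794 elements also enter this term, so these splits are a description. At the Ferd3l promoter the difference grew by 1.96 on the log2 scale (adjusted p = 0.000138, limma), with p3 at 484 ± 115 at day 5. Near Neurod1 it grew in favor of pMN, changing by -1.43, with pMN at 555 ± 132 and p3 at 73.1 ± 22.7. In the intron of Hhip it changed by -1.28, with 729.8 ± 109 in pMN and 106 ± 24.5 in p3.

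The elements were also read in the cells before the split and in the neighboring dorsal types. NMPs of day 3 (3 samples) had no SAG, p0-1 of day 4 (6 samples) had 0 or 10 nM and p2 of day 4 (6 samples) 10 or 100 nM. The 565 elements higher in p3 had a median of 22.3 normalized counts in NMPs of day 3, 81.2 in p0-1 and 90.7 in p2 of day 4, 88.1 in pMN and 231 in p3. In p3 this median was 302 at day 5 and 315 at day 6, and in pMN 76.5 and 60.3. On the deposited log2 scale the NMP mean was nearer that of pMN in 523 of them (92.6%, against 32.5% of all tested), and the p2 mean in 537 (95.04%, against 77.3%). Elements higher in p3 thus had lower medians in NMPs, p0-1 and p2 than in p3, and in pMN by the choice of the elements. The 1794 elements higher in pMN had 20.1 in NMPs, 186 in p0-1, 243 in p2, 261 in pMN and 90.4 in p3, and 330 at day 5 and 320 at day 6 in pMN, against 97.5 and 83.9 in p3. The NMP mean was nearer that of p3 in 1670 (93.1%, against 67.5%), while p2 was nearer pMN in 91.6%. The p0-1 mean was nearer pMN in 59.3% (against 46.4%). Since pMN and p3 chose these elements, only the values of the other samples are independent of the choice. The shares nearer pMN or p3 also use the pMN and p3 means, so they are not independent of it. All tested elements are no matched baseline for these shares, which are a description. The exceptions were 42 elements higher in p3 and nearer p3 in NMPs, with medians of 345 in NMPs, 96.9 in pMN and 235 in p3, and 124 higher in pMN and nearer pMN, with 263, 227 and 77.3.

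**Figure D4:**
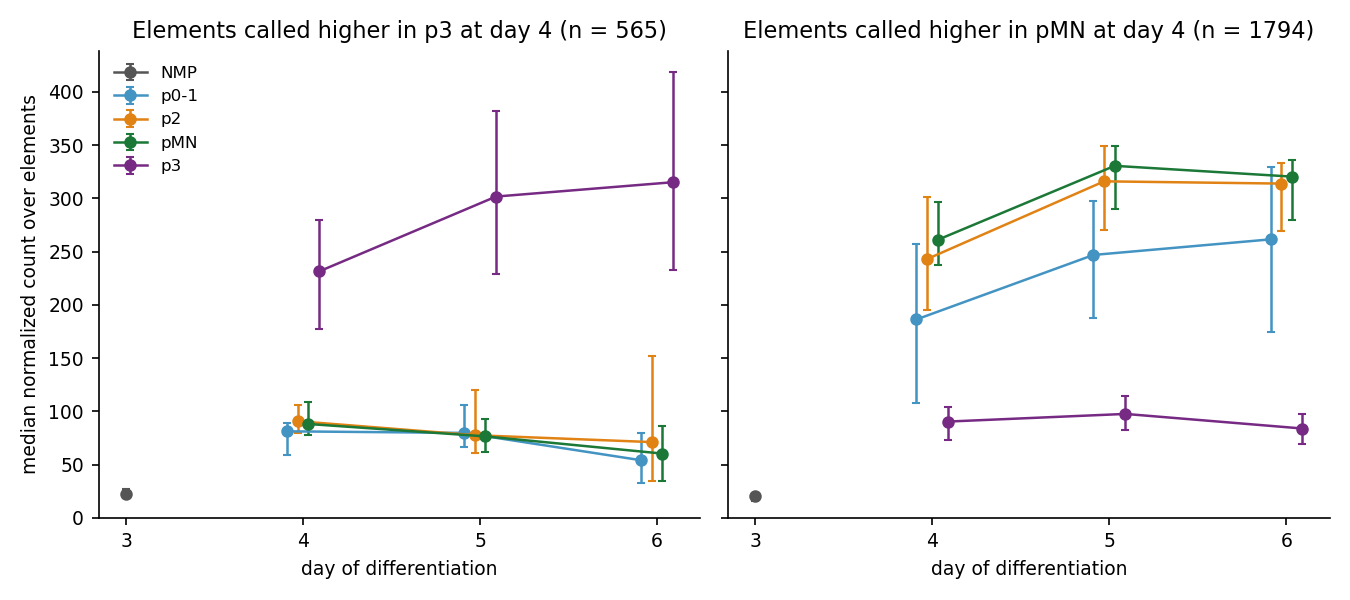
Median normalized counts of the 565 elements higher in p3 and of the 1794 higher in pMN at day 4, in NMPs of day 3 and in each progenitor type by day. Elements higher in p3 have 22.3 in NMPs, 88.1 in pMN and 231 in p3 of day 4, and those higher in pMN 20.1, 261 and 90.4.

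Sequence was not used to call elements, and 12 short motifs were counted on both strands of the central 300 bases. Beside the 7 motifs given before, these were the GLI motif TGGGTGGTC, the E-box CATATG, the homeodomain motif TAATTA, the octamer ATGCAAAT and the AP-1 motif TGANTCA. The FOX motif was in 12.9% of the elements higher in p3 (73 of 565, exact 95% binomial interval 10.3 to 16.0) and in 4.18% of those higher in pMN (75 of 1794, 3.30 to 5.21), against 3.57% of all 29636 tested, and its share was 20.8% among the 53 elements above a log2 fold change of 2. The TEAD motif was in 37.2% (33.2 to 41.3) and 16.9% (15.2 to 18.8), against 15.8%, but in 24.5% of the 53 elements (13 of 53). In the central 200 bases of the 53 it was in 13.2%, against 10.9% of all tested. Relative to all tested elements the shares in p3 were 3.62 times for FOX and 2.36 times for TEAD. CDX factors act in NMPs and posterior tissue, and TEAD factors are the DNA-binding partners of YAP. The CDX motif was in 1.42% of elements higher in p3 (0.613 to 2.77) and 8.47% of those higher in pMN (7.22 to 9.86), against 2.86%, a ratio of 2.96 in pMN. Over whole elements in place of the central 300 bases the ratios were lower, 1.80 for FOX and 1.29 for TEAD in p3 and 1.69 for CDX in pMN, and the share of CATATG in p3 (21.8%, against 16.7%) was then about as high relative to all tested as that of TEAD (74.2%, against 57.6%). The SOX motif was in 8.14% and 13.2%, against 5.52%, and the homeodomain motif in 6.55% and 10.5%, against 4.98%. The E-box CAGATG was in 21.4% and 30.0%, against 17.2%, and CATATG in 4.60% and 5.52%, against 2.89%. The octamer was in 1.42% and 2.73%, against 1.60%, and for CATATG and the octamer the intervals of the 2 directions overlapped. The NKX2 motif, of the family of the p3 sorting factor, was in 15.6% and 16.9%, against 10.8%, and CAGCTG in 22.8% and 21.2%, against 19.2%, and in both cases the intervals overlapped. The AP-1 motif was in 11.3% and 9.31%, against 6.21%, with overlapping intervals. GLI motifs were in 1 of 565 and 11 of 1794 elements, against 0.489% of all. These shares are a description, elements are not independent replicates, and the intervals cover counting only. All tested elements had a higher median GC content (54.7%) than the called ones.

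**Figure D5:**
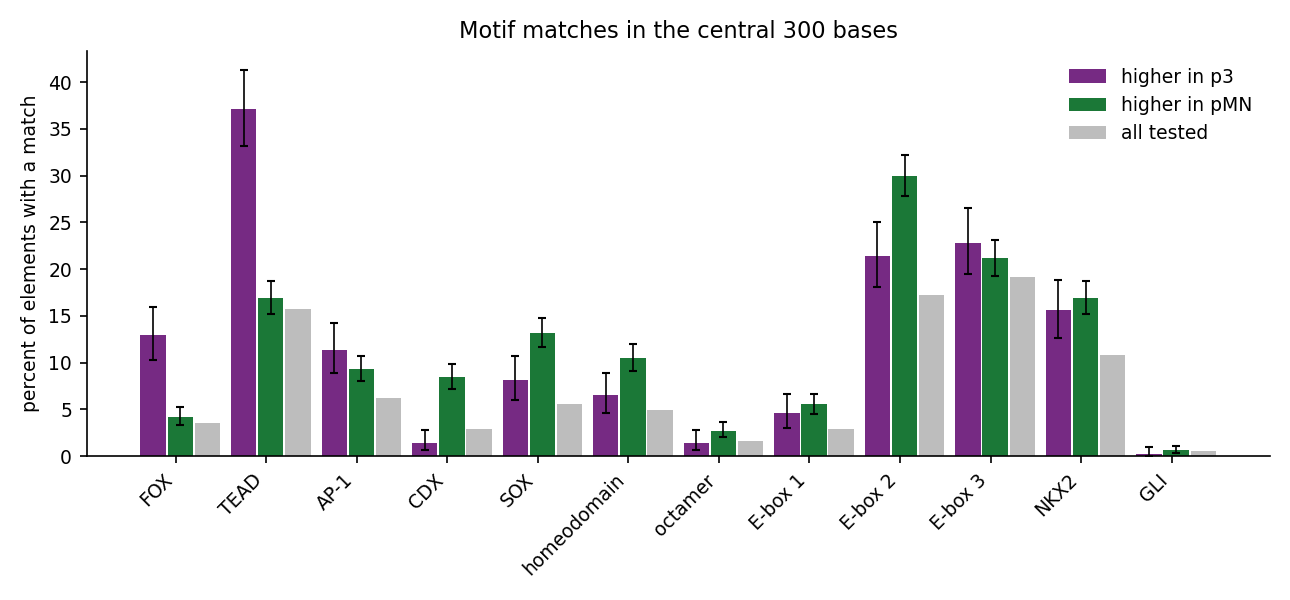
Percent of elements with each of 12 motifs in the central 300 bases, for the 565 elements higher in p3, the 1794 higher in pMN and all 29636 tested, with exact 95% binomial intervals for the called sets. E-box 1 is CATATG, E-box 2 is CAGATG, E-box 3 is CAGCTG, and the FOX motif is in 12.9% of elements higher in p3, 4.18% of those higher in pMN and 3.57% of all.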

How the data were processed

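CaTS-ATAC reads were processed by the authors with nf-core/atacseq against mm10, with peaks from MACS and reads counted in consensus elements. The deposited values are log2 values, the authors' DESeq2 variance-stabilizing transformation of normalized counts, for 111638 elements, and the deposited HOMER annotation gives position, class and nearest TSS. The transformation was inverted, and 100% of the lower values came out as whole reads, to within 3.58e-11 of a read, so normalized counts, depth and reads could be recovered.

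Samples were grouped by their labels. pMN and p3 were compared with limma 3.58.1 in R 4.3.3, by a linear model of the deposited values with a variance trend, two-sided, with Benjamini-Hochberg adjustment over elements whose mean in those samples exceeded 100 normalized counts. Calls needed an adjusted p under 0.01 and group means, with a pseudocount of 1, more than 2-fold apart. The fit was tested on simulated data. Motifs, levels and lists were counted in Python 3.11.15 with pysam 0.24.0, on the GRCm38 reference.

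Samples and gene lists were chosen with earlier results of these data known. Named elements are the 6 with the largest change in each direction among called elements without overlap (chromosome 18 left out), up to 4 genes per list by their largest called element, the elements nearest the TSS and most different at Sox2, Olig2, Nkx6-1, Pax6 and Foxa2, and the 5 genes with most called elements in each direction. Exceptions are said where they occur.

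The titles number the replicates. Deviations from group means were correlated between pMN and p3. With the same number and SAG concentration, r was 0.140 to 0.689 in 5 pairs (median 0.536). With the same number at different concentrations the median was 0.415, and with different numbers at the same concentration it was -0.196. Deviations sum to 0 within each small group, so part of this contrast is fixed by the centering. The r of 0.140 was for p3 at 100 nM replicate 1, which had 0.127 with pMN at 100 nM replicate 2. The main fit did not use the numbers. The p3 sample at 500 nM titled replicate 3 is described as another number, and the titles were used. Alternatives covered the filter, threshold, scaling, replicate block, voom on recovered reads, thinning to the shallowest library, and leaving out each sample. The expression, binding and mutant data of the study were not used here, and some elements that the rules would name are not reported here.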

Additional observations from a re-analysis of the deposited data

Results flagged for a closer look

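The highest or lowest sample of its group stood apart by Dixon's criterion in 11 of the groups of normalized counts, where chance alone gives about 1 in 20 of the 132 groups looked at. In pMN at 500 nM replicate 1, the highest of the 6 samples was 342 near Frrs1, 2184 near Neurog2, 1504 near Hey2 and 252 near Cxcr4. In pMN at 500 nM replicate 3 the highest was 76.7 near 4933417O13Rik and 68.2 near 1110002J07Rik, both elements that were higher in p3, and both stayed below every p3 sample. In p3 at 100 nM replicate 1, the shallowest library, the highest of the 5 samples was 96.9 near Uncx and 513 in the Nkx2-2 intron element nearest Nkx2-2os, and the lowest was 6.06 in the Elp4 intron element nearest Pax6. That Pax6 value lay beside 73.9 in the next sample, and the element was not called (adjusted p = 0.0144, limma). The lowest p3 sample near Neurod1 was 87.1, at 500 nM replicate 1, and that at the promoter element of 6430503K07Rik 2260, at 100 nM replicate 2.

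The difference between p3 and pMN changed from day 4 to day 5 at 7 named elements, by limma's term for it at an adjusted p under 0.01. On the log2 scale it changed towards p3 by 1.96 at the Ferd3l promoter and by 1.10 at the Foxa2 promoter. It changed towards pMN at the elements near Elavl4 (-1.64), Neurod1 (-1.43), Hhip (-1.28), Uncx (-0.80) and Notch1 (-0.49).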

How the results depend on the processing

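Over all 11 samples the count of called elements moved by over 1.5 times with the filter and the threshold. Without a filter on the mean the count of called elements was 13981 at the 2-fold threshold and 2201 at a log2 fold change above 2, 5532 at 100 nM, 9970 at 500 nM, 32325 at day 5, 33316 at day 6 and 9227 for the change from day 4 to day 5. With a mean above 50 the first 4 counts were 4965, 797, 3163 and 4487. The threshold of log2 2 gave 370 in place of 2359. With the replicate block the count was 2415, and the change from day 4 to day 5 gave 3985. The block moved no other count of called elements by over 1.5 times. Size factors from promoters gave 2469 (397 higher in p3 and 2072 in pMN), and leaving out the 2 shallowest libraries 2502 (779 and 1723). Leaving out each sample gave 2167 to 2463 called elements, 309 to 422 at a log2 fold change above 2, 321 to 2610 at 100 nM (lowest without pMN replicate 1, highest without p3 replicate 3), 0 to 2541 at 500 nM (lowest without pMN replicate 2, with 6306 at an unadjusted p under 0.05) and 0 to 0 for the dependence on SAG. The cause was not tested.

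Of 52 named calls, 7 were lost in at least 1 of 16 alternatives, those near Elavl4, Gata6, Hoxb4, Nanog, Rarb, Shh and Sox1. The element in the Elp4 intron near Pax6 passed with samples centered on their medians. The Sox2 promoter, at -0.04, changed sign to 0.0176 with samples centered on their medians, and was between -0.0930 and 0.0107 when each sample was left out, the highest without p3 at 500 nM replicate 1. At Hox loci 6 elements were called with promoter size factors, 1 with centered samples and 4 without the 2 shallowest libraries (chosen after seeing the data, as were the scalings of the lists), at mesoderm loci 3 with promoter size factors and 2 without those libraries, at pluripotency loci 0 in both, and at fibroblast loci 1 without them. Over whole elements in place of the central 300 bases, the share of the FOX motif in elements higher in p3 was 1.80 times that of all tested, and the ratios were 1.29 and 0.916 for TEAD (p3 and pMN), 1.69 for CDX in pMN, 1.54 for SOX in pMN, 1.42 for homeodomain in pMN, 1.16 for the octamer in pMN, 1.35 for the E-box CATATG in pMN, 1.05 and 1.13 for CAGATG, 0.958 and 0.925 for CAGCTG, 1.08 and 1.11 for NKX2 and 1.24 and 1.17 for AP-1. In the central 200 bases the octamer had 0.169 in p3. On log2 of normalized counts plus 1, p0-1 was nearer p3 in 36.3% of elements higher in pMN. With 5000 elements the first component held 77.0%. Depth limits what can be said of weak elements, as those under the filter were not tested.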

Other observations

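The 30 called promoter-TSS elements were looked at by gene, and those named here were chosen after their values were seen. Among the 20 that were higher in pMN, that of Scube2, which encodes a protein that helps to release Shh from cells, had 678 ± 57.6 normalized counts in pMN (SD, n = 6) and 262 ± 57.2 in p3 (SD, n = 5), a log2 fold change of -1.37. The promoter of Prdm8, a gene for a transcriptional regulator of the PRDM family, had 850.4 ± 107 and 372 ± 73.2, a change of -1.19. That of Hoxb5os, an antisense transcript of the HoxB cluster, had 228 ± 40.5 and 35.7 ± 11.8, a change of -2.64. The element of Chd7, a chromatin remodeler gene, had 229 ± 43.1 and 113 ± 6.48, a change of -1.01. In these 4 every p3 sample was below every pMN sample.

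Among the 10 that were higher in p3, the promoter of Palm3, a paralemmin gene, had 196 ± 38.9 in pMN and 428 ± 65.0 in p3, a log2 fold change of 1.13, and that of Fgfbp1, a gene for an FGF-binding protein, had 122 ± 27.6 and 293 ± 31.0, a change of 1.25. In both every p3 sample was above every pMN sample.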
